A study of Mus musculus with 34 samples.

Results

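Apolipoprotein genes of the mouse liver were followed after partial hepatectomy (PHx), together with Mttp, the gene of the transfer protein that loads lipid onto apolipoprotein B. The set was chosen by gene name from the count table and holds 10 genes: Apoa1, Apoa2, Apoa4, Apoa5, Apob, Apoc1, Apoc2, Apoc3, Apoe and Mttp. The table lists 78298 genes, 14980 of which had enough counts to be tested, and all 10 genes of the set were among those tested. Bulk polyA RNA was sequenced from whole liver of 34 mice, which were male, 8 to 12 weeks old and of C57/Bl6 background. SIRTintKO mice (SIRT1intKO in the labels) carried floxed exon 4 of Sirt1 and Cre recombinase under the Villin promoter, which acts in the intestinal epithelium, and their WT littermates carried the floxed Sirt1 without Cre. Livers were taken from untreated mice (0 hours) or 6 and 24 hours after a PHx in which 70 percent of the liver, the left lateral and median lobes, was resected. The groups held 6, 6 and 4 WT mice and 6, 5 and 7 SIRTintKO mice at 0, 6 and 24 hours. There was no sham surgery group, and the 0-hour libraries were numbered in a series of their own, so the effects of PHx and of handling between these series cannot be told apart. The labels call the libraries biological replicates and say nothing more of their origin, so the p-values measure the spread between these samples.

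Apolipoproteins are the protein part of lipoprotein particles, which carry triglyceride and cholesterol through the blood. In the hepatocyte, Mttp loads lipid onto apolipoprotein B while it enters the endoplasmic reticulum, and the particle leaves the cell as very-low-density lipoprotein. The smaller apolipoproteins exchange between particles and act as scaffolds, as activators or inhibitors of plasma lipases, or as ligands of the receptors that clear remnants. The regenerating liver is known to store triglyceride for a time after resection.

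For 4 genes that passed the test at 24 hours in both genotypes, 2 higher and 2 lower, bases just upstream of the transcription start are shown, read from RefSeq on build GRCm38.p6 and trimmed to bases outside annotated exons. RefSeq promoter windows were matched for 8 of the 10 genes, without Apoc1 and Apoc3, and the Apoa4 window held no bases outside annotated exons. Capitals mark AGGTCA, the letters of a nuclear receptor half-site, and TATAAA, the letters of a box of the core promoter. They are marked on either strand and at any distance from the start. No TATAAA shown, in Apoa5 or Apoa2, is placed as a core promoter box. In Apoa2 it lies near the upstream end of the stretch, far from the start. Apoc2 and Apoa5 rose after PHx, whereas Apoa2 and Apoe fell.
Apoc2, chr7:19677942-19678082, minus strand: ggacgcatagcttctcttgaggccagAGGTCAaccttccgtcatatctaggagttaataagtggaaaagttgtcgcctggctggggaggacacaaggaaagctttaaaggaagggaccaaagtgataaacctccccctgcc
Apoa5, chr9:46268383-46268632, plus strand: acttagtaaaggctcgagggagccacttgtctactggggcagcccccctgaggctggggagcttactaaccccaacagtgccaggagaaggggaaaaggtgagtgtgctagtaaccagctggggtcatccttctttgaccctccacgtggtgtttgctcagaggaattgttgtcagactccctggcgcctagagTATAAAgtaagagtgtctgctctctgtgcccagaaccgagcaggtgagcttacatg
Apoa2, chr1:171224804-171225053, plus strand: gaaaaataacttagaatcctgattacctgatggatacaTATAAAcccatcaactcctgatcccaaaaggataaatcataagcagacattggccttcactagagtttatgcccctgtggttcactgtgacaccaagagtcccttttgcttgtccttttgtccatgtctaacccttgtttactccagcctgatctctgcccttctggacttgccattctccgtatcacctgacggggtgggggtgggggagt
Apoe, chr7:19699189-19699438, minus strand: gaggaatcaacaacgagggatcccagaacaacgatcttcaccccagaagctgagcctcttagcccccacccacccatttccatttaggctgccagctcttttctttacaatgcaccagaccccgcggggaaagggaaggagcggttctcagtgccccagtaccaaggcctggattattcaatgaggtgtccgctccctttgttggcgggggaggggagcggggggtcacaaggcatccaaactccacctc
In the full windows of 300 bases, AGGTCA was found in 1 of the 8 genes (Apoc2, with 2 matches, 1 of them in the stretch shown) and in 16.3% of 32817 mouse promoters. TATAAA was found in 3 of the 8 (Apoa2, Apoa5 and Apob) and in 13.6% of promoters. CAAAGTCCA, a core sequence bound by HNF4, was found in 0 of the 8 and in 0.475% of promoters. These matches are letters in a window and were not linked to the expression data.

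Library totals lay between 14892122 and 23480492 estimated counts, with a median of 16807340. Levels are given as CPM, a gene's counts relative to the size of its library, scaled with the trimmed mean of M values (TMM), and are compared between livers and not between genes. Alb, Ttr and other hepatocyte markers summed to group medians of 37439.5 to 76987 CPM, so the defining markers of the labelled tissue were present. Sirt1, deleted in the intestine and not in the liver, was counted over the whole gene at 6.92 to 23.1 CPM in the livers of all groups, which does not check the intestinal deletion. On the first principal component of all tested genes (40.7% of the variance), the 24-hour libraries did not form 1 cluster. WT 24-hour replicates 1 and 2 lay at 86.2 and 95.9, WT 24-hour replicates 3 and 4 at -8.02 and -17.6, and SIRTintKO 24-hour replicate 5 at 8.10, apart from the other SIRTintKO 24-hour livers at 49.7 to 80.3. The labels give no reason for this split, and whether these livers differed in handling was not tested, so at 24 hours such a difference and an effect of genotype or time cannot be told apart. The number of all genes that passed between WT livers at 24 and 0 hours was 7742 of 15569 (49.7%) without WT replicates 3 and 4 and SIRTintKO replicate 5, and 858 of 15619 (5.49%) without WT replicates 1 and 2. Comparisons at 24 hours were rerun without each of these sets of libraries, and the values are given where they end a call or move a value by over 1.5 times.

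Together, the 10 genes supplied 2.52 to 4.90% of the counts of a library. In WT livers their share was 4.14% ± 0.188 (SD, n = 6) at 0 hours, 3.27% ± 0.510 (n = 6) at 6 hours and 2.86% ± 0.409 (n = 4) at 24 hours. In SIRTintKO livers it was 4.16% ± 0.440 (n = 6), 3.30% ± 0.169 (n = 5) and 3.67% ± 0.537 (n = 7). These shares are of unscaled counts, whereas the marker sums below and the main tests are TMM scaled. TMM factors ran from 0.740 (WT 6-hour replicate 6) to 1.42 (SIRTintKO 24-hour replicate 6). The step from 3.30 to 3.67% in SIRTintKO livers therefore need not hold on the TMM scale. The summed level of 8 hepatocyte markers had a median of 76987 CPM at 0 hours, 61455 at 6 hours and 37439.5 at 24 hours in WT livers. In SIRTintKO livers it was 74531, 63646 and 47449.8 CPM. The sum is mostly Alb, serum albumin, with WT medians of 45162, 31772 and 18842 CPM, whereas the means of Tat (2190 and 4357 CPM) and Cps1 (2415 and 3815 CPM) were higher at 6 than at 0 hours in WT livers. Of the 8 markers, 1 rose and 2 fell in WT and 1 rose and 1 fell in SIRTintKO livers at 6 hours, beside 18.5% and 17.6% of all genes lower. At 24 hours 0 rose and 4 fell in WT and 0 rose and 6 fell in SIRTintKO livers, beside 14.6% and 24% of all genes lower. The part of these markers in the results below was not tested, and in bulk tissue fewer hepatocytes and less RNA per hepatocyte cannot be told apart.

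**Figure D1:**
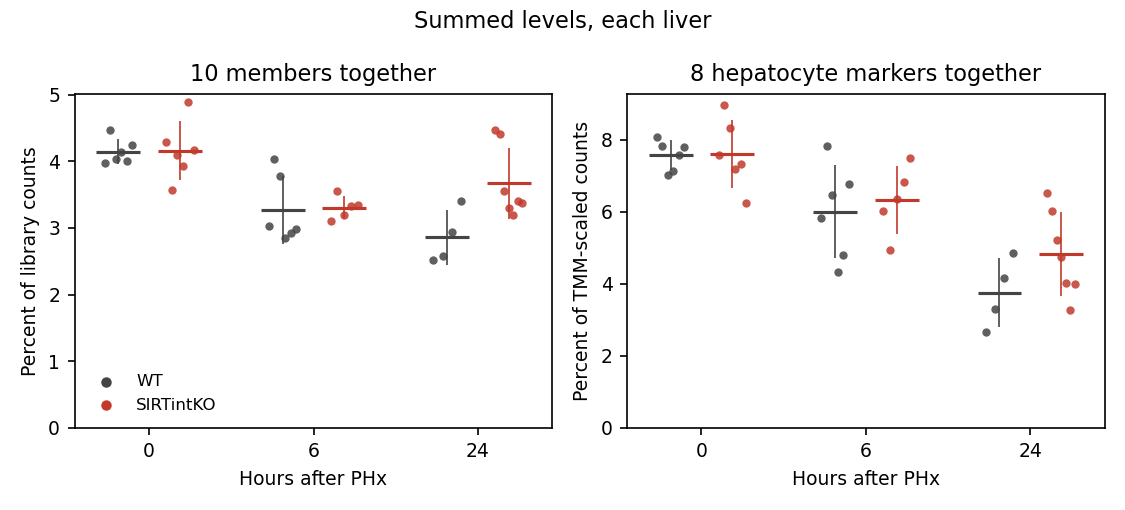
Share of each library's counts taken by the 10 genes (left, percent of library counts) and summed level of 8 hepatocyte markers (right, percent of TMM-scaled counts), by hours after PHx. Points are livers, horizontal bars group means and vertical lines 1 SD; the share of the 10 genes lies between 2.52 and 4.90% in all 34 livers.

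To see how PHx moved the set, livers at 6 and 24 hours were compared with untreated livers of the same genotype, using edgeR's quasi-likelihood test with Benjamini-Hochberg adjustment over all tested genes (adjusted p under 0.05 passes). At 6 hours in WT livers, Apoa4, Apoa5 and Apoc2 rose and Apoe fell, which is 3 of 10 higher and 1 of 10 lower, beside 18.9% of all genes higher and 18.5% lower. In SIRTintKO livers at 6 hours the genes that passed were again Apoa4, Apoa5 and Apoc2, higher, and Apoe, lower, beside 20.9% and 17.6% of all genes. At 24 hours 3 genes were higher (Apoa4, Apoc2 and Apoa5) and 3 lower (Apoa2, Apoc1 and Apoe) in each genotype. The background at 24 hours was 19.5% higher and 14.6% lower in WT livers, and 26.2% higher and 24% lower in SIRTintKO livers.

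The median log2 fold change of the 10 genes against 0 hours was 0.01 in WT and -0.04 in SIRTintKO livers at 6 hours, and -0.25 and -0.04 at 24 hours. The medians over all tested genes were 0.02, 0.01, 0.02 and 0.04. A change of more than 1 on the log2 scale, the study's size threshold, was passed by 3 of the 10 in WT and by 1 in SIRTintKO livers at 6 hours, beside 15.6% and 16.6% of all genes. It was passed at 24 hours by 3 of the 10 in WT and 2 in SIRTintKO livers, beside 15.7% and 23% of all genes. Apob, Mttp, Apoa1 and Apoc3 passed in no comparison of this fit of all 34 libraries.

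**Figure D2:**
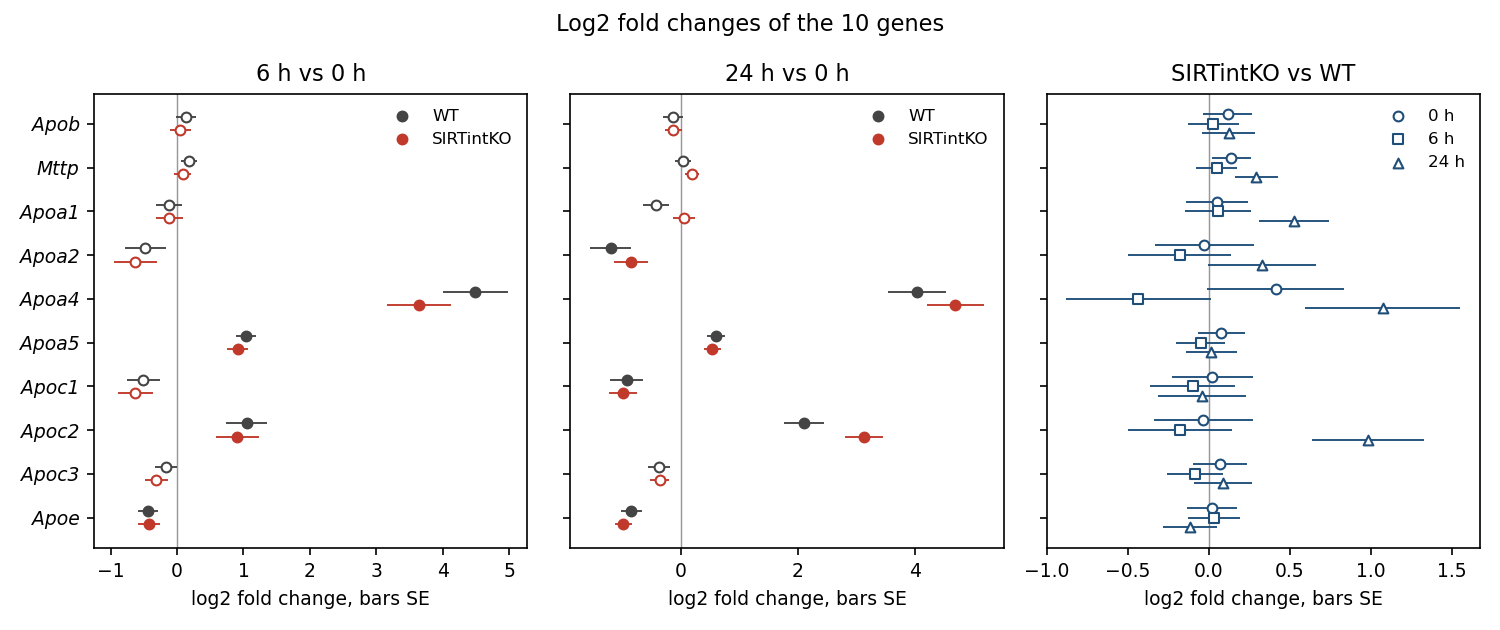
Log2 fold change (x axis) of each of the 10 genes with its standard error (lines), at 6 hours against 0 hours, at 24 hours against 0 hours, and in SIRTintKO against WT livers at each time. Filled symbols passed at an adjusted p under 0.05 (edgeR) and open symbols did not; all symbols of the genotype panel are open, and Apoa4 and Apoc2 lie furthest to the right at 24 hours.

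Apob encodes the large structural protein of very-low-density lipoprotein, of which each particle holds a single copy. Its level was 2184 to 2837 CPM in WT livers at 0 hours (median 2663), 2404 to 4186 at 6 hours (median 2579) and 1630 to 2769 at 24 hours (median 2543). In SIRTintKO livers it was 2147 to 3774 CPM (median 2732), 2703 to 3177 (median 2828) and 2048 to 3324 (median 2420.5). All neighbouring groups overlapped, and the 6 group means spanned 0.32 on the log2 scale, the narrowest range of the 10 genes. Its log2 fold change at 24 hours was -0.13 (SE 0.169, adjusted p = 0.567 by edgeR) in WT and -0.13 (SE 0.145, adjusted p = 0.473) in SIRTintKO livers.

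Mttp, which transfers lipid to apolipoprotein B, ranged from 142 to 218 CPM (median 199) in WT livers at 0 hours, 176 to 271 (median 214) at 6 hours and 179 to 232 (median 190.2) at 24 hours. In SIRTintKO livers it ranged from 159.8 to 273 CPM (median 209.8), 205 to 247 (median 221) and 212 to 281 (median 229). The group means spanned 0.34 on the log2 scale and neighbouring groups overlapped. Its spread between livers of 1 group was small, 0.20 on the log2 scale, which is at the 12.5th percentile of tested genes.

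Apoa4, a lipid-binding apolipoprotein that the intestine and the liver secrete and that is known to rise in liver with triglyceride load, changed most. In untreated WT livers it was at 76.6 to 133 CPM (median 107), and in untreated SIRTintKO livers at 115 to 231 CPM (median 129). At 6 hours it was at 689.7 to 5107 CPM (median 1656) in WT livers, and at 1841, 2772, 881, 548 and 2989 CPM in SIRTintKO replicates 1 to 5. Every liver at 6 hours was above every untreated liver of its genotype, and the 2 genotypes overlapped.

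The log2 fold change of Apoa4 at 6 hours was 4.49 (SE 0.488, 22.5-fold, adjusted p = 2.89e-08 by edgeR) in WT livers and 3.64 (SE 0.477, 12.5-fold, adjusted p = 8.25e-07) in SIRTintKO livers. At 24 hours it stood at 703, 1771, 2486 and 2157 CPM in WT replicates 1 to 4 and at 2356 to 6580.2 CPM (median 3483) in the 7 SIRTintKO livers. The groups overlapped in 1 library only, because WT replicate 3 exceeded the lowest SIRTintKO liver. Against 0 hours its log2 fold change at 24 hours was 4.03 (SE 0.496, 16.4-fold, adjusted p = 7.90e-07) in WT and 4.69 (SE 0.488, 25.9-fold, adjusted p = 1.15e-08) in SIRTintKO livers. The WT value at 24 hours was 4.42 without WT replicates 1 and 2, and without the 3 libraries near 0 on the first principal component it was 3.54 in WT and 4.81 in SIRTintKO livers. Apoa4 also varied more between livers of 1 group than most genes, with a standard deviation of 0.79 on the log2 scale, at the 89.7th percentile of tested genes.

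Because Apoa4 is also an intestinal gene, enterocyte markers were read beside it. Sis and Alpi were at 0 in all 34 libraries, and Lct and Rbp2 did not exceed 0.12 CPM. Vil1 did not exceed 0.80 CPM. Fabp2, a fatty acid binding protein of the enterocyte, supplied nearly all of the list's sum, whose group medians lay between 36.1 and 66.9 CPM. In SIRTintKO livers at 24 hours Fabp2 rose by 1.43 on the log2 scale against 0 hours (SE 0.343, adjusted p = 0.000964 by edgeR) and by 1.34 against 6 hours (SE 0.365, adjusted p = 0.00674). It was higher than in WT livers at 24 hours by 1.46 (SE 0.398, adjusted p = 0.0280), a call lost without WT replicate 1 or 2 or SIRTintKO replicate 2 (0.87 to 1.67 with 1 library left out, adjusted p up to 0.0767), without WT replicates 1 and 2 (1.07, adjusted p = 0.141) and with only the groups compared (adjusted p = 0.305). The highest Fabp2 value, 307 CPM, was in SIRTintKO 24-hour replicate 2, which also had the highest Apoa4 (6580.2 CPM) and Apoc2 (3902 CPM) of its group. The part of this signal in the Apoa4 and Apoc2 values was not tested.

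Apoc2, the cofactor that activates lipoprotein lipase, was at 146 to 212 CPM (median 179.7) in untreated WT livers and at 148 to 219 CPM (median 172) in untreated SIRTintKO livers. At 6 hours it was at 229 to 521 CPM (median 369.9) in WT livers and at 475, 404, 286, 191 and 301 CPM in SIRTintKO replicates 1 to 5. WT livers at 6 hours were all above untreated WT livers, whereas SIRTintKO replicate 4 lay within the untreated range. At 24 hours it was at 1134, 1038, 476 and 485 CPM in WT replicates 1 to 4 and at 622 to 3902 CPM (median 1326) in SIRTintKO livers. Every liver at 24 hours was above every untreated liver of its genotype.

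The log2 fold change of Apoc2 at 6 hours was 1.05 (SE 0.310, adjusted p = 0.00809 by edgeR) in WT and 0.91 (SE 0.321, adjusted p = 0.0252) in SIRTintKO livers. In the SIRTintKO comparison the adjusted p was between 0.0503 and 0.0992 when replicate 1 or 4 at 0 hours, or replicate 1 or 2 at 6 hours, was left out. The 24-hour value was 2.11 (SE 0.341, 4.33-fold, adjusted p = 3.00e-05) in WT and 3.13 (SE 0.327, 8.74-fold, adjusted p = 1.32e-08) in SIRTintKO livers. Without WT replicates 1 and 2 the WT value was 1.41 (adjusted p = 0.0254). Without the 3 libraries near 0 on the first principal component it was 2.62 in WT and 3.31 in SIRTintKO livers. Between 6 and 24 hours Apoc2 rose by 2.22 on the log2 scale (SE 0.337, adjusted p = 2.28e-05) in SIRTintKO livers, with no overlap. In WT livers this step was 1.06 (SE 0.338, adjusted p = 0.0289) with overlapping groups, and it did not pass without WT 24-hour replicate 1 (adjusted p = 0.134) or 2 (adjusted p = 0.0999), or without replicate 1, 5 or 6 at 6 hours (0.0559, 0.0531 and 0.0597). Reads of Apoc2 overlap those of Apoc4 and Apoc2l, and the estimated count of Apoc2 was over 0.1 away from a whole number in 27 of 34 libraries, so the split of reads between these genes is uncertain. The Apoc2l count was 0.182 to 15.9% of the Apoc2 count, with the lowest group medians at 24 hours.

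Over the steps from 6 to 24 hours, Apoc2 was the only gene of the set that passed in WT livers (1 of 10 higher and 0 lower, beside 10% and 6.43% of all genes). In SIRTintKO livers Apoc2 was higher and Apoe lower (1 of 10 each, beside 13.2% and 14.4% of all genes). Apoa4 differed by -0.46 (SE 0.478, adjusted p = 0.557 by edgeR) in WT and 1.05 (SE 0.441, adjusted p = 0.0729) in SIRTintKO livers over this step.

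Apoa5, a liver-made apolipoprotein that enhances triglyceride hydrolysis by lipoprotein lipase, was at 863 to 1257 CPM (median 1099) in untreated WT livers and 944 to 1301 CPM (median 1168) in untreated SIRTintKO livers. At 6 hours it was at 1814 to 2542 CPM (median 2278) in WT livers, and at 2164, 2074, 1570, 2544 and 2456 CPM in SIRTintKO replicates 1 to 5. At 24 hours it was at 1824, 1927, 1412 and 1480.3 CPM in WT replicates 1 to 4 and at 1322 to 2435 CPM (median 1744) in SIRTintKO livers. All livers after PHx lay above the untreated livers of their genotype. The log2 fold change at 6 hours was 1.04 (SE 0.146, adjusted p = 1.97e-06 by edgeR) in WT and 0.91 (SE 0.151, adjusted p = 2.46e-05) in SIRTintKO livers. By 24 hours the log2 fold change was 0.61 (SE 0.16, adjusted p = 0.00429) and 0.54 (SE 0.140, adjusted p = 0.00191). Without WT replicates 1 and 2 the WT difference at 24 hours was 0.41 (adjusted p = 0.252).

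**Figure D3:**
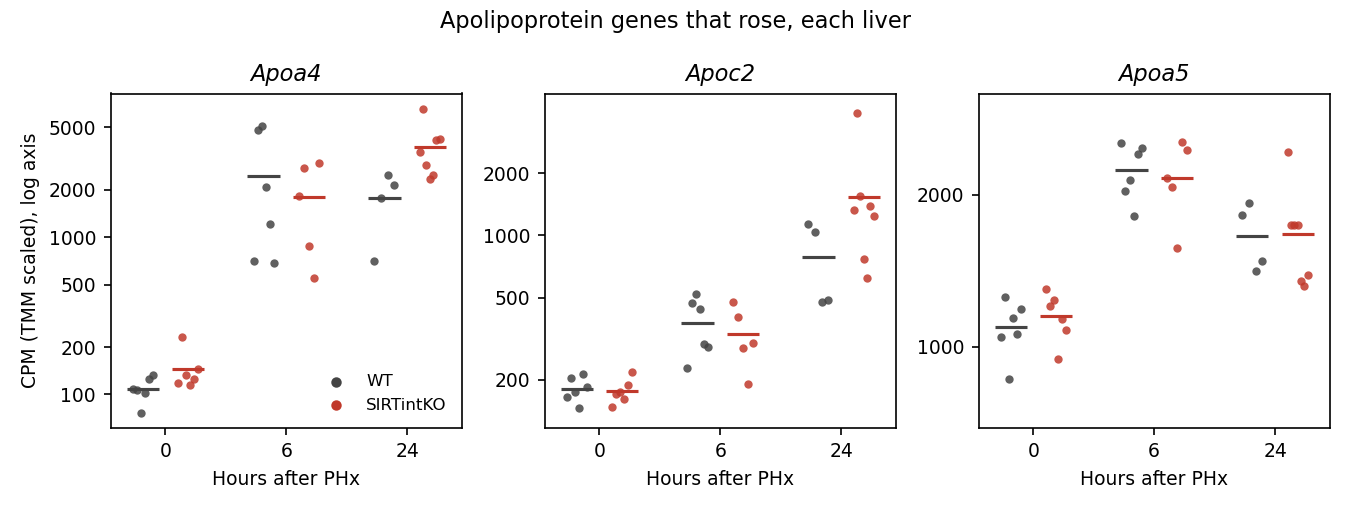
Levels (CPM, TMM scaled, log axis) of Apoa4, Apoc2 and Apoa5 in each liver by hours after PHx. Points are livers and bars group means; all WT livers at 6 and 24 hours lie above the untreated WT livers in each panel, and the SIRTintKO livers at 24 hours reach the highest levels of Apoa4 (6580.2 CPM) and Apoc2 (3902 CPM).

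Apoa1 and Apoa2 are the 2 main proteins of high-density lipoprotein. Apoa1 ranged from 7831 to 11114 CPM in untreated WT livers (median 8675), from 5609.6 to 10840.1 at 6 hours (median 7539.7) and from 5167 to 8364 at 24 hours (median 6578). In SIRTintKO livers the medians were 8976, 9029 and 9122 CPM, with the widest spread, from 5401 to 14060.4 CPM, at 24 hours. All neighbouring groups overlapped, and no comparison of Apoa1 passed in the TMM-scaled edgeR fit of all 34 libraries.

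Apoa2 was at 5466 to 6019 CPM (median 5805) in untreated WT livers and 4422 to 7854 CPM (median 5571) in untreated SIRTintKO livers. By 24 hours the level was 1694, 2497, 2717 and 3213 CPM in WT replicates 1 to 4, all below every untreated WT liver. In SIRTintKO livers at 24 hours it ranged from 1077 to 7319.6 CPM (median 2624) and overlapped the untreated livers. The log2 fold change at 24 hours was -1.19 (SE 0.352, adjusted p = 0.00942 by edgeR) in WT and -0.84 (SE 0.291, adjusted p = 0.0170) in SIRTintKO livers. At 6 hours it was -0.48 (SE 0.303, adjusted p = 0.226) in WT livers, where replicate 6 (7829 CPM) was above the untreated livers, and -0.63 (SE 0.321, adjusted p = 0.121) in SIRTintKO livers. As an unscaled share of library counts, that WT replicate was at 0.579%, within the untreated WT range of 0.558 to 0.637%. The WT difference at 24 hours had an adjusted p of 0.0501 without WT replicate 1 and of 0.241 without WT replicates 1 and 2.

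Apoc1 and Apoc3 inhibit lipid clearance, Apoc3 by restraining lipoprotein lipase and remnant uptake. Apoc1 was at 4031 to 5195 CPM (median 4234.5) in untreated WT livers and 3454 to 6086 CPM (median 4318) in untreated SIRTintKO livers. At 6 hours it was at 2322 to 4784 CPM (median 2865) in WT livers, and at 2921, 2635, 3049, 2922 and 2859.8 CPM in SIRTintKO replicates 1 to 5. In livers at 24 hours it was at 1587, 2133, 2557 and 2942 CPM in WT replicates 1 to 4 and at 912 to 4248 CPM (median 2356) in SIRTintKO livers. SIRTintKO livers at 6 hours and WT livers at 24 hours were all below their untreated groups.

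Apoc1 fell at 24 hours, with a log2 fold change of -0.92 (SE 0.288, adjusted p = 0.0135 by edgeR) in WT and -0.99 (SE 0.241, adjusted p = 0.00112) in SIRTintKO livers. At 6 hours the changes of -0.50 (SE 0.251, adjusted p = 0.114) and -0.63 (SE 0.265, adjusted p = 0.0609) did not pass. The SIRTintKO change at 6 hours passed in 7 of 34 edgeR fits without 1 library (adjusted p from 0.0271 to 0.119 over all 34). In WT livers at 24 hours the adjusted p was 0.0709 without replicate 1 and 0.323 without replicates 1 and 2. Apoc3 went from a median of 1593 CPM to 1393 and 1169 CPM in WT livers and from 1576 to 1341 and 1110.4 CPM in SIRTintKO livers. Its difference at 24 hours was -0.38 (SE 0.186, adjusted p = 0.117) in WT and -0.36 (SE 0.159, adjusted p = 0.0594) in SIRTintKO livers. The SIRTintKO difference of Apoc3 passed in 6 of 34 edgeR fits without 1 library. It lay between -0.49 (adjusted p = 0.00816, without SIRTintKO 24-hour replicate 2) and -0.24 (adjusted p = 0.196, without replicate 6).

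Apoe, the ligand through which remnant particles bind their hepatic receptors, was at 14370.3 to 16328 CPM (median 15706) in untreated WT livers and 13881 to 16669 CPM (median 15806) in untreated SIRTintKO livers. At 6 hours it was at 9446 to 13763.5 CPM (median 11060.5) in WT livers, and at 10950.1, 12278, 12141, 12324.5 and 10895 CPM in SIRTintKO replicates 1 to 5. By 24 hours it was at 7362, 8159, 8916 and 10208 CPM in WT replicates 1 to 4 and at 5234 to 12059 CPM (median 7911) in SIRTintKO livers. No liver after PHx reached the level of any untreated liver of its genotype.

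The log2 fold change of Apoe at 6 hours was -0.43 (SE 0.153, adjusted p = 0.0258 by edgeR) in WT and -0.42 (SE 0.161, adjusted p = 0.0373) in SIRTintKO livers. The 24-hour values were -0.84 (SE 0.175, adjusted p = 0.000540) and -0.98 (SE 0.148, adjusted p = 3.59e-06). Between 6 and 24 hours it fell by 0.55 on the log2 scale (SE 0.154, adjusted p = 0.00801) in SIRTintKO livers. Leaving out WT replicate 4 at 6 hours gave an adjusted p of 0.0530 for the WT difference at 6 hours, and the SIRTintKO difference at 6 hours lost its call in 5 of 34 such fits, those without replicate 1 or 3 at 0 hours (0.0631 and 0.0543) or replicate 1 (just over 0.05), 3 or 5 (0.0549 and 0.0576) at 6 hours. Without WT replicates 1 and 2 the WT difference at 24 hours was -0.69 (adjusted p = 0.0640).

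**Figure D4:**
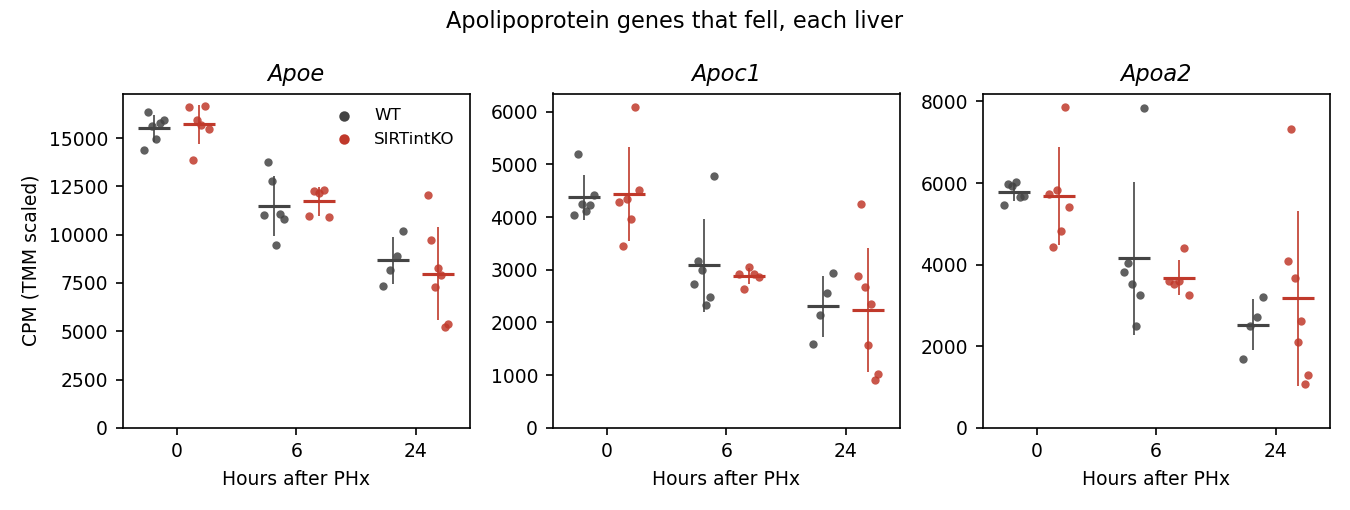
Levels (CPM, TMM scaled) of Apoe, Apoc1 and Apoa2 in each liver by hours after PHx. Points are livers, horizontal bars group means and vertical lines 1 SD; for Apoe every liver at 6 and 24 hours lies below the untreated livers of its genotype, with a WT mean of 15494 CPM at 0 hours and 8661 CPM at 24 hours.

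For each gene the 6 group means were put in order. Neighbouring groups in that order were without overlap at 1 point for each of 3 genes. For Apoa4 and Apoa5 this point lay between untreated SIRTintKO livers and WT livers at 24 hours. For Apoe it lay between SIRTintKO livers at 6 hours and untreated WT livers. The share of all tested genes with such a gap was not computed, so whether 3 genes is few or many cannot be told. For Apoa4 the order ran from untreated WT (109 CPM) and untreated SIRTintKO (145 CPM) to WT at 24 hours (1779 CPM), SIRTintKO at 6 hours (1806 CPM), WT at 6 hours (2441 CPM) and SIRTintKO at 24 hours (3738 CPM). The group means spanned 5.04 on the log2 scale for Apoa4, 2.90 for Apoc2, 1.23 for Apoa2, 1.15 for Apoc1, 1.04 for Apoa5 and 1.03 for Apoe. For Apoa1 and Apoc3 they spanned 0.49 and 0.44.

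**Figure D5:**
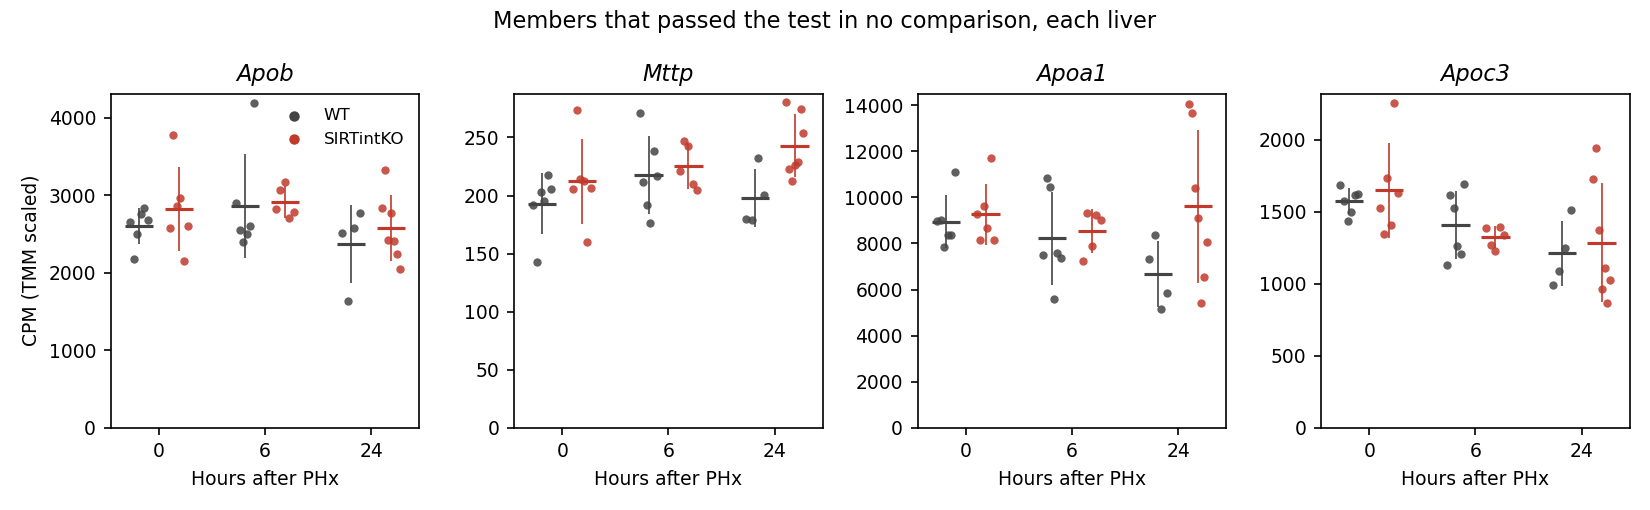
Levels (CPM, TMM scaled) of Apob, Mttp, Apoa1 and Apoc3 in each liver by hours after PHx, the genes that passed in no comparison of the TMM-scaled edgeR fit of all 34 libraries. Points are livers, horizontal bars group means and vertical lines 1 SD; the groups overlap at all times, with Apob means between 2371 and 2913 CPM.

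To ask whether loss of Sirt1 in the intestine moved the set in the liver, SIRTintKO livers were compared with WT livers at each time. At 0 hours 0 of the 10 genes passed in edgeR, DESeq2 also passed 0, and 0 had an unadjusted p under 0.05, beside 0% of all genes higher and 0% lower in edgeR and 0.0401% in either direction in DESeq2. The log2 fold changes at 0 hours lay between -0.03 and 0.41. At 6 hours 0 of 10 passed in edgeR and in DESeq2, 0 had an unadjusted p under 0.05, and the differences lay between -0.43 and 0.06, again beside 0% higher and 0% lower in edgeR and 0.0601% in either direction in DESeq2.

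At 24 hours 0 of 10 genes passed in edgeR, 4 had an unadjusted p under 0.05, and DESeq2 passed 1, Apoc2, beside 2.3% of all genes higher and 3.51% lower in SIRTintKO livers in edgeR and 8.72% in either direction in DESeq2. The 4 genes were higher in SIRTintKO livers, and all overlapped between the genotypes. Apoc2 differed by 0.98 on the log2 scale (SE 0.345, 1.97-fold, adjusted p = 0.0821 by edgeR), Apoa4 by 1.07 (SE 0.478, 2.10-fold, adjusted p = 0.169), Apoa1 by 0.53 (SE 0.215, adjusted p = 0.131) and Mttp by 0.29 (SE 0.132, adjusted p = 0.171). The median difference of the 10 genes was 0.21, with 8 of 10 above 0, beside a median of -0.02 over all genes. At 0 hours, where no gene passed in edgeR, 8 of 10 were also above 0, with a median of 0.06. The median absolute difference at 24 hours was 0.21 for the 10 genes and 0.27 for all genes.

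The genotype differences at 24 hours depended on which WT livers were used. Without WT replicates 1 and 2, Apoc2 differed by 1.68 (adjusted p = 0.0112 by edgeR) and Apoa1 by 0.80 (adjusted p = 0.0449), whereas Apoa4 differed by 0.69 (adjusted p = 0.451). Without WT replicates 3 and 4 and SIRTintKO replicate 5, Apoc2 differed by 0.66 (adjusted p = 0.249), Apoa1 by 0.41 (adjusted p = 0.264) and Apoa4 by 1.69 (adjusted p = 0.0795). With any 1 library left out the Apoc2 difference lay between 0.54 (adjusted p = 0.271, without SIRTintKO replicate 2) and 1.18 (adjusted p = 0.0513, without WT replicate 1). Leaving out SIRTintKO replicate 5 alone gave 1.11 for Apoc2 (adjusted p = 0.0255) and 0.62 for Apoa1 (adjusted p = 0.0403).

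The difference of the PHx responses between genotypes was tested as an interaction. At 6 hours 0 of the 10 genes passed in edgeR and in DESeq2 and 0 had an unadjusted p under 0.05, beside 0% of all genes in edgeR and 0.0134% in DESeq2. At 24 hours 0 passed in edgeR and in DESeq2, beside 0.00668% of all genes higher and 0% lower in edgeR and 0.781% in either direction in DESeq2. Apoc2 alone had an unadjusted p under 0.05, with a larger rise in SIRTintKO livers by 1.01 on the log2 scale (SE 0.458, adjusted p = 0.349 by edgeR). Without WT replicates 1 and 2 at 24 hours this interaction was 1.72 (adjusted p = 0.0427), and without the 3 libraries near 0 on the first principal component it was 0.69 (adjusted p = 0.386). With any 1 library left out it lay between 0.58 (adjusted p = 0.587, without SIRTintKO 24-hour replicate 2) and 1.21 (adjusted p = 0.208, without WT 24-hour replicate 1).

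Markers of other cells also moved at 24 hours, beside 19.5% of all genes higher and 14.6% lower in WT and 26.2% and 24% in SIRTintKO livers, and their part in the values above was not tested. Neutrophil markers summed to 3.66 to 17.1 CPM in untreated WT and 2.43 to 15.5 CPM in untreated SIRTintKO livers. At 24 hours they summed to 102, 85.4, 10.6 and 5.13 CPM in WT replicates 1 to 4 and to 17.3 to 938 CPM in SIRTintKO livers, where replicate 2 was highest. Of the 4 that were tested, 3 rose in WT and 4 in SIRTintKO livers. Monocyte and macrophage markers summed to 41.3 to 64.9 CPM in untreated WT and 24.2 to 52.9 CPM in WT livers at 24 hours, where 3 of 7 rose and 2 fell. In SIRTintKO livers they went from 36.6 to 85.9 CPM to 41.3 to 186 CPM, with 6 of 7 higher and 0 lower.

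Cholangiocyte markers summed to 6.53 to 13.9 CPM in untreated WT and 7.29 to 14.4 CPM in untreated SIRTintKO livers, and to 15.4 to 116 and 14.8 to 54.2 CPM at 24 hours, with 2 of 4 higher and 0 lower in each genotype. Most of that sum in WT livers at 24 hours was Sox9 (mean 49.9 CPM), while the means of Krt19, Krt7 and Epcam were 2.32, 1.46 and 4.25 CPM. Sinusoidal endothelial markers summed to 67.0 to 105 CPM in untreated WT and 24.4 to 60.9 CPM in WT livers at 24 hours, and 3 of 4 fell. In SIRTintKO livers the sums were 69.7 to 124 CPM and 34.1 to 69.7 CPM, and 3 fell and 1 rose. Of 5 Kupffer cell markers 3 fell in WT livers, and 1 rose and 1 fell in SIRTintKO livers. Of 4 stellate cell markers 2 fell in each genotype, and the 1 lymphocyte marker tested fell in each. Between genotypes at 24 hours 2 of 7 monocyte and macrophage markers and 1 of 5 Kupffer cell markers were higher in SIRTintKO livers, and of 8 hepatocyte markers Alb was higher (0.85 on the log2 scale) and Fah (-0.69) and Hpd (-1.37) were lower. These counts stand beside 2.3% of all genes higher and 3.51% lower. With only the groups compared, 0 of 13974 genes passed between genotypes at 24 hours in edgeR, so these marker calls were lost in that fit.

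Other genes of lipoprotein assembly moved in both directions after PHx. The counts of the lists that follow stand beside 18.9% of all genes higher and 18.5% lower in WT and 20.9% and 17.6% in SIRTintKO livers at 6 hours, and 19.5% and 14.6% in WT and 26.2% and 24% in SIRTintKO livers at 24 hours. Of 12 genes for assembly and secretion, 3 rose and 5 fell in WT livers at 6 hours, 3 rose and 4 fell in SIRTintKO livers at 6 hours, 3 rose and 3 fell in WT livers at 24 hours, and 4 rose and 4 fell in SIRTintKO livers at 24 hours. Their median log2 fold change at 24 hours was -0.19 in WT and -0.02 in SIRTintKO livers, beside 0.02 and 0.04 over all genes. At 24 hours in WT livers Surf4, a cargo receptor that takes lipoproteins out of the endoplasmic reticulum, rose by 0.93 on the log2 scale (SE 0.112). P4hb, the partner subunit of Mttp, rose by 0.92 (SE 0.136), Tm6sf2, which acts in lipidation of very-low-density lipoprotein, by 1.35 (SE 0.235), and Dgat2, which makes triglyceride, fell by 0.88 (SE 0.194). In SIRTintKO livers P4hb changed by 0.87, Surf4 by 0.71, Tm6sf2 by 1.26 and Cideb, which acts in particle lipidation, by -0.75. In WT livers at 24 hours 3 of the 12 rose and 0 fell when replicates 1 and 2 were left out, and Dgat2 was then at -0.42 (adjusted p = 0.195 by edgeR), against -1.52 without the 3 libraries near 0 on the first principal component.

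Of 13 other apolipoproteins, 6 rose and 3 fell in WT and 4 rose and 3 fell in SIRTintKO livers at 6 hours, and 4 rose and 3 fell in WT and 4 rose and 5 fell in SIRTintKO livers at 24 hours, with medians of 0.14 and 0.10 at 24 hours. The acute-phase apolipoproteins Saa1 and Saa2 differed by 5.04 (SE 0.582) and 6.24 (SE 0.753) in WT livers at 24 hours and by 4.26 and 5.83 in SIRTintKO livers. Saa1 and Saa2 are near-identical copies and the Apol genes form a family of similar copies, so their split of reads is uncertain. Clu, an extracellular chaperone, rose by 0.96 (SE 0.148) in WT livers, and Apol7a fell by 1.83 (SE 0.400) in WT and 1.85 in SIRTintKO livers. With WT replicates 1 and 2 left out the counts in WT livers at 24 hours were 3 higher and 1 lower and Apol7a fell by 1.02, and without the 3 libraries near 0 on the first principal component it fell by 3.78 in WT livers.

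Of 10 plasma lipases and remodelling genes, 2 rose and 4 fell in WT and 2 rose and 3 fell in SIRTintKO livers at 6 hours, and 1 rose and 6 fell in WT and 1 rose and 4 fell in SIRTintKO livers at 24 hours, with medians of -0.76 and -0.24 at 24 hours. Hepatic lipase, Lipc, fell by 1.58 on the log2 scale (SE 0.276) in WT and 1.86 (SE 0.229) in SIRTintKO livers at 24 hours. Pon1, an enzyme of high-density lipoprotein, fell too, with log2 fold changes of -1.74 (SE 0.353) and -1.95 (SE 0.291). The WT value of Pon1 was -1.18 (adjusted p = 0.0626 by edgeR) without WT replicates 1 and 2, where 1 of the 10 rose and 2 fell in WT livers, and -2.65 without the 3 libraries near 0. Lipg, endothelial lipase, had log2 fold changes at 24 against 0 hours of -1.20 in WT and 1.09 in SIRTintKO livers. The WT fall lost its call without WT 24-hour replicate 1 (adjusted p = 0.0501 by edgeR). Between genotypes at 24 hours Lipg was higher in SIRTintKO livers by 2.05 (SE 0.397, adjusted p = 0.00517 by edgeR). Lcat, which esterifies cholesterol on high-density lipoprotein, differed by -0.39 (SE 0.101, adjusted p = 0.0233). These are 1 of 10 higher and 1 lower, beside 2.3% and 3.51% of all genes. With only the groups compared, 0 of 13974 genes passed between genotypes at 24 hours in edgeR (1830 with an unadjusted p under 0.05), so every pathway call between genotypes was lost in that fit, with an adjusted p of 0.256 for Lipg and 0.301 for Lcat. Lipg passed under all other alternatives (1.94 to 2.19 with 1 library left out). Lcat did not pass with total-count scaling (-0.24, adjusted p = 0.288), with all genes of at least 1 count (adjusted p = 0.134), with the replicate block (0.0859), without the 3 libraries near 0 (0.0879), or without WT replicate 3 or SIRTintKO replicate 6 (up to 0.0551).

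Of 12 receptors and cholesterol efflux genes, 3 rose and 3 fell in WT and 3 rose and 0 fell in SIRTintKO livers at 6 hours, and 5 rose and 1 fell in WT and 6 rose and 0 fell in SIRTintKO livers at 24 hours, with medians of 0.53 and 0.53 at 24 hours. Sdc1, a heparan sulfate proteoglycan that binds remnants, rose by 1.76 (SE 0.255) in WT and 1.03 (SE 0.227) in SIRTintKO livers, and Abca1, which moves cholesterol onto Apoa1, by 1.64 (SE 0.298) in WT livers. Between genotypes at 24 hours 3 of the 12 were lower in SIRTintKO livers, with log2 fold changes of -0.64 for Lrp1 (adjusted p = 0.0181 by edgeR), -0.98 for Sdc1 (adjusted p = 0.0202) and -1.06 for Abca1 (adjusted p = 0.0270). Lrp1 is a receptor of Apoe-bearing remnants. These 3 of 12 lower and 0 higher stand beside 3.51% and 2.3% of all genes. All 3 calls rest on particular livers or fits. Leaving out WT replicates 1 and 2, Abca1 turned to 0.04 (adjusted p = 0.950) and Sdc1 was -0.52 (adjusted p = 0.179), whereas Lrp1 was -0.89 (adjusted p = 0.00162). Without the 3 libraries near 0 on the first principal component, Abca1 was -1.60, Sdc1 -1.36 and Lrp1 -0.42 (adjusted p = 0.0820). Leaving out WT replicate 2 alone gave -0.52 for Sdc1 (adjusted p = 0.182), and Abca1 did not pass without WT replicate 1 or 2 or SIRTintKO replicate 6 (adjusted p up to 0.128), with a range of -1.34 to -0.76 over all fits without 1 library. With only the groups compared the adjusted p was 0.279 for Lrp1, 0.259 for Sdc1 and 0.319 for Abca1. With the replicate block Sdc1 (0.0933) and Abca1 (0.0899) did not pass, and with total-count scaling Lrp1 (0.117) and Sdc1 (0.0787) did not. In WT livers at 24 hours against 0 hours, Abca1 was at 0.55 (adjusted p = 0.312) without WT replicates 1 and 2, and 2 of the 12 then rose and 0 fell.

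Of 16 transcription factors known to act on these genes, 4 rose and 4 fell in WT and 4 rose and 3 fell in SIRTintKO livers at 6 hours, and 1 rose and 2 fell in WT and 2 rose and 7 fell in SIRTintKO livers at 24 hours, with medians of -0.14 and -0.34 at 24 hours. Srebf2, a regulator of cholesterol synthesis, rose by 0.70 (SE 0.202) in WT and 0.77 (SE 0.179) in SIRTintKO livers at 24 hours. The bile acid receptor gene Nr1h4 fell by 0.88 (SE 0.305) and 1.10 (SE 0.256), and Srebf1, a regulator of fatty acid synthesis, by 0.69 (SE 0.238) and 1.39 (SE 0.203). Between genotypes at 24 hours Cebpa, a factor of the mature hepatocyte, had a log2 fold change of -1.37 (adjusted p = 0.0103 by edgeR) and Srebf1 of -0.80 (adjusted p = 0.0316), both lower in SIRTintKO livers, which is 0 of 16 higher and 2 lower beside 2.3% and 3.51% of all genes. With only the groups compared neither passed (adjusted p = 0.256 for Cebpa and 0.259 for Srebf1). Cebpa passed under all other alternatives (-1.66 to -1.23 with 1 library left out). Srebf1 did not pass with total-count scaling (0.142), with all genes of at least 1 count (0.0565), with the replicate block (0.0983), without the 3 libraries near 0 (just over 0.1), or in 6 of 34 fits without 1 library, those without WT replicate 2, 3 or 4 or SIRTintKO replicate 2, 3 or 6 (adjusted p up to 0.0882). When WT replicates 1 and 2 were left out, 0 of the 16 factors passed in WT livers at 24 hours against 0 hours, where Srebf2 was at 0.02 (adjusted p = 0.982), Nr1h4 at -0.30 (adjusted p = 0.661) and Srebf1 at -0.43 (adjusted p = 0.461, and 0.0622 with total-count scaling). With WT replicate 1 or 2 alone left out these 3 calls were also lost (adjusted p up to 0.138), that of Srebf1 also without WT 0-hour replicate 1. Without the 3 libraries near 0 the WT value was 1.19 for Srebf2 and -1.83 for Nr1h4, and with only the groups compared Srebf2 (0.0560) and Nr1h4 (0.0780) did not pass. Of the 12 assembly genes and the 13 other apolipoproteins, 0 passed between genotypes at 24 hours in edgeR, and DESeq2 passed 1 of the 13.

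The genes with a pattern most like that of Apoa4 or Apoc2 were found over the 6 group means, each gene centred on its own mean, among 7311 genes whose mean over all libraries was at least 10 CPM. For Apoc2 the smallest root mean square differences on the log2 scale were 0.15 for Id1, 0.16 for S100a11, 0.19 for Krt8, 0.20 for Anxa2 and 0.28 for Orm3. For Apoa4 they were 0.48 for Rpl3-ps1, 0.49 for 2010003K11Rik, 0.50 for Cd14, 0.51 for Sik1 and 0.52 for Tnfrsf12a. Most of these genes were below 10 CPM in untreated livers and reached that mean through the livers after PHx. The differences were smaller for Apoc2 than for Apoa4, but they were not scaled to the span of the group means (2.90 and 5.04 on the log2 scale). They thus do not rank how closely the 2 patterns are shared, and they are a description over 6 points.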

How the data were processed

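Per the labels, stranded polyA libraries from 34 whole livers were read as pairs of 100 bases. The submitters' processing notes name STAR, Salmon and build GRCm39, without versions. The deposited values are estimated counts per gene (expected counts that need not be whole, 4.98% of the values differing from a whole number by any amount), which the authors left unnormalized and which were rounded to whole numbers here. The table had 35 columns, of which 1 matched no sample and was not used. Duplicated libraries were not found, since the smallest chi-square per gene between libraries of 1 group was 16.1. The letter x was missing from the symbols of 1255 genes, 666 of them tested, and was restored by gene identifier.

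Genes were filtered with edgeR's filterByExpr, scaled by TMM and fitted with the quasi-likelihood test in edgeR 4.0.16 (R 4.3.3) over all 6 groups at once, and p-values were adjusted by Benjamini-Hochberg over 14980 genes. A change was called at an adjusted p under 0.05, and separately at a log2 fold change over 1. The scripts were tested on simulated data. DESeq2 1.42.0 gave an alternative, beside other scalings, low-count filters, the compared groups alone, a replicate block and each library left out. The 10 genes, 5 pathway lists and 9 marker lists were chosen with earlier results of these data known. At most 4 genes per list and comparison were named, by lowest p in the comparison described, and values of the same genes were often given for the other genotype. Genes of lower p there were thus not always named. An example is Cebpa in SIRTintKO livers at 24 against 0 hours (-1.91, edgeR adjusted p up to 1.18e-05 with 1 library left out). A result for 1 gene that this rule named is not reported here. Of 63 pathway genes, 63 were tested. Library totals of 14892122 to 23480492 counts set the counting precision.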

Additional observations from a re-analysis of the deposited data

Results flagged for a closer look

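In 60 combinations of gene and group, 9 libraries stood apart from the others of their group by Dixon's criterion, which chance alone meets in about 1 of 20 groups. WT replicate 6 at 6 hours stood apart for Apoa2 (7829 CPM, next 4029.8), Apob (4186 CPM, next 2904) and Apoc1 (4784 CPM, next 3164). It was the highest in each. These levels are TMM scaled, and this library had the lowest TMM factor of all 34, 0.740. As unscaled shares of library counts it was at 0.579% for Apoa2, 0.310% for Apob and 0.354% for Apoc1. The medians of WT livers at 6 hours were 0.336, 0.245 and 0.262% in that order. The criterion was not applied to unscaled shares. SIRTintKO replicate 2 at 24 hours stood apart for Apoc2 (3902 CPM, next 1558), and SIRTintKO replicate 1 at 24 hours for Apoa5 (2435 CPM, next 1746). In untreated SIRTintKO livers, replicate 2 stood apart for Apoa4 (231 CPM, next 145). In untreated WT livers, replicate 6 stood apart for Apoa1 (11114 CPM, next 9038), and replicate 2 for Apoc1 (5195 CPM, next 4428) and, as the lowest, for Mttp (142 CPM, next 192). No interaction of genotype and PHx passed for any of the 10 genes in edgeR.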

How the results depend on the processing

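Of 46 results on the 10 genes, 11 were counts, which have no direction to reverse, and 35 were log2 fold changes. These 35 were chosen for an unadjusted p under 0.05 in edgeR, which makes a reversal unlikely from the start. Of them, 0 changed direction under the alternatives run, and fold changes of larger p were not followed. Pathway lists and their genes were rerun at 24 hours only, an addition made after seeing the data, and Abca1 between genotypes turned from -1.06 to 0.04 without WT 24-hour replicates 1 and 2. Marker sums and lists at 6 hours were not rerun. Numbers of genes that passed out of 10 are given here. With total-count scaling 7 passed at 6 hours against 0 hours in each genotype in place of 4, and 2 (Apoa1 and Apoc2) between genotypes at 24 hours in place of 0. Under that scaling the median log2 fold change of all genes lay between -0.17 and 0.27 over the comparisons, so its counts carry that shift. The share of all genes that passed under it was 35.9% in WT and 34.2% in SIRTintKO livers at 6 hours and 5.35% between genotypes at 24 hours. From 6 to 24 hours in WT livers, in place of 1, DESeq2 passed 3, a filter of 10 counts in every library 2, and 0 passed with only the groups compared, with the replicate block, or without WT 24-hour replicates 1 and 2, beside 18.9, 19.3, 4.81, 11.8 and 9.53% of all genes in that order. From 6 to 24 hours in SIRTintKO livers, in place of 2, DESeq2 passed 4 and only the groups compared gave 1, beside 29.9% and 21.5% of all genes. Between genotypes at 24 hours DESeq2 passed 1 in place of 0, beside 8.72% of all genes. Without WT 24-hour replicates 1 and 2, an alternative chosen after seeing the data like that without the 3 libraries near 0 on the first component, 2 passed in WT livers at 24 hours in place of 6 (Apoa4 and Apoc2), 2 between genotypes and 1 in the interaction at 24 hours, beside 5.49, 17 and 7.2% of all genes. Leaving out 1 library gave 2 to 5 at 6 hours in SIRTintKO livers (2 without replicate 1 at 0 hours or replicate 1 at 6 hours), 0 to 1 from 6 to 24 hours in WT livers and 0 to 2 between genotypes at 24 hours. The cause of these differences was not tested.

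Replicate numbers did not pair the samples: of 76 pairs with the same number, 6 had a correlation of deviations over 0.1, with a median of -0.0036. The block moved the count of no other comparison by over 1.5 times. With 4 WT livers at 24 hours in 2 separate pairs, the genotype differences at 24 hours rest on few livers.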
